A study of Mus musculus with 21 samples.

Results

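The genes described here are *Lepr*, *Spp1*, *Car3*, *Susd5*, *Atp8a2*, *Serpina1b*, *Mt1* and *Mt2*, 8 of the 23983 genes in the deposited expression table. *Lepr*, *Spp1*, *Car3*, *Susd5*, *Atp8a2*, *Serpina1b* and *Mt2* were picked on high FPKM values in both trunk notochord libraries, and *Mt1* was added as the paralogue of *Mt2*. Their levels in trunk notochord are therefore a description of how they were chosen. The study profiled notochord progenitors (NotoP), mesodermal progenitors (MP) and trunk notochord from mouse embryos by RNA-seq, together with cultured progenitors, and mapped binding of T and Foxa2 in culture by ChIP-seq. It holds 21 samples, of which 9 RNA-seq libraries and 2 ChIP-seq peak lists were analysed here, each condition with 1 library.

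The embryos were made from genetically modified F1G4 (C57BL/6N x SV129) embryonic stem cells that carry 3 BAC reporters, T::H2B-Venus, Noto::H2B-mCherry and Foxa2::H2B-mTurquoise. The labels call the assay tetraploid complementation, while the study also describes aggregation with diploid morulae. Cells positive for all 3 reporters were sorted from trunk tissue (trunk notochord) or from caudal ends (NotoP), and T+/Noto-/Foxa2- cells from caudal ends (MP), at TS12 (E8.5) and TS16 (E9.5). The study gives the Foxa2 gate as high for both trunk libraries and NotoP at E9.5, and as positive for NotoP at E8.5. Each library came from pooled embryos, those for trunk notochord of a wider range of somite numbers than those for NotoP and MP, so that the stages of a comparison are matched only roughly. The trunk libraries were made from fewer cells than the NotoP libraries and the E8.5 MP library from the fewest. The cultured cells derive from F1G4 cells with a doxycycline-inducible TRE::Foxa2-IRES-EGFP in the Rosa26 locus and 2 BACs, of which one expresses H2B-mCherry and the transactivator irTA from T and the other is Noto::H2B-mTurquoise. All cultures received bFGF at 10 ng/ml for 3 days and CHIR99021 from day 2. Neuromesodermal progenitor-like cells (NMPdiff) were collected on day 3 and mesodermal progenitor-like cells (MPdiff) on day 4, both without doxycycline. Notochord progenitor-like cells (NotoPdiff) also received doxycycline at 1 ng/ml from day 2 to day 4. For RNA-seq, NotoPdiff cells were sorted as positive for the *Noto* and *T* reporters and MPdiff cells as positive for *T* only. NMPdiff cells came from the MPdiff gate on day 3. The ChIP-seq libraries are from bulk NotoPdiff-enriched cultures, in which Foxa2 comes from the transgene as well. Every group carries reporters, and no unmodified embryo was measured.

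The notochord, which is made of axial mesoderm, is a source of Sonic hedgehog and BMP antagonists in the embryo. It lengthens caudally from progenitors at the node and tail end, and its trunk part later builds a sheath rich in extracellular matrix before its cells enter the intervertebral discs. T and Foxa2 are transcription factors needed for its formation.

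All 8 notochord markers examined were present in the E8.5 trunk library and 7 in the E9.5 one. *Shh* was at 468 FPKM in the E8.5 trunk library and 607 in the E9.5 one, above both NotoP libraries (161 and 178), while *T* was lower in trunk notochord (398 and 424) than in NotoP (909 and 744). *Noto*, which marks the progenitor end, was at 27.5 and 20.8 in trunk notochord against 152 and 164 in NotoP, and the BMP antagonist *Chrd* at 6.72 and 0 against 37.1 and 10.6. Trunk notochord thus had more *Shh* and less *T*, *Noto* and *Chrd* than NotoP. Of 6 markers of paraxial mesoderm progenitors, *Tbx6*, *Msgn1* and *Hes7* were at 0 in both trunk libraries, and *Dll3* (5.08), *Rspo3* (3.67) and *Dll1* (1.92) were detected at E8.5 only. At 0 in both trunk libraries were also all 7 macrophage markers in the table and 7 of the 8 blood markers, globin genes included, with *Alas2* at 2.27 and 1.23. Some markers of other tissues were present. Of 12 genes of gut and visceral endoderm, 9 reached 1 FPKM in each trunk library, with summed levels of 163 and 176 FPKM against 76.9 and 49.2 in NotoP and 159 and 5.75 in MP. The most abundant were *Rbp4* in the E8.5 library (47.3) and *Afp* in the E9.5 library (95.7), while *Sox17* and *Apoa4* were at 0. The 8 neural tube genes summed to 98.5 and 77.1 FPKM in trunk notochord against 37.4 and 30.8 in NotoP. *Irx3* (64.6 and 53.6) and *Sox2* (14.3 and 14.5) led them at E9.5, *Nkx6-1* was at 14.7 and 1.32, *Nkx2-2* at 1.62 and 7.02, and *Pax6*, *Pax7* and *Olig2* were at 0. The 8 somite genes summed to 49.7 and 35.3 against 18.9 and 19.3, with *Meox1* (25.9 and 14.0) the most abundant, *Tcf15* at 11.8 and 0, *Pax1* at 0 and 13.5, and *Meox2* and *Myf5* at 0. The part of such cells in the values of the 8 genes was not tested. In such bulk libraries, fewer cells of a type and less RNA per cell cannot be told apart.

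*Lepr* encodes the leptin receptor, a cytokine receptor that signals through Jak2 and Stat3. It had 46.0 FPKM in trunk cells of E8.5 and 116 in those of E9.5, 0.341 and 0 in NotoP, 0 in both MP libraries, and 0.658 in NMPdiff, 0.211 in NotoPdiff and 0.539 in MPdiff. The gene was thus abundant in trunk notochord and under 1 FPKM in the other 7 libraries. Its NotoP value at E8.5 corresponds to 1 fragment, compared with about 71 and 166 fragments in trunk notochord. *Spp1* encodes osteopontin, a secreted phosphoprotein of mineralised matrix that binds integrins and Cd44. It was at 44.9 and 46.9 FPKM in trunk notochord, 0.664 and 0.453 in NotoP, 0 in both MP libraries, and 0.932, 0.101 and 0.306 in NMPdiff, NotoPdiff and MPdiff. Each NotoP value again equals 1 fragment, and like *Lepr* the gene was under 1 FPKM outside trunk notochord.

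*Car3* encodes a cytosolic carbonic anhydrase known from skeletal muscle and fat. It was the most abundant of the 8 genes in trunk notochord, with 118 FPKM at the earlier stage and 312 at the later, and unlike *Lepr* and *Spp1* it was above 1 FPKM in most other libraries. NotoP had 6.78 and 15.6 FPKM, MP 0 and 11.4, and the cultured cells 10.5 (NMPdiff), 7.39 (NotoPdiff) and 1.85 (MPdiff). *Susd5*, a membrane protein with a sushi domain, was at 15.9 and 38.7 FPKM in trunk notochord, 0 and 2.49 in NotoP, 0 and 1.06 in MP, and 0.648, 2.14 and 0.842 in NMPdiff, NotoPdiff and MPdiff. *Atp8a2*, a flippase that moves phosphatidylserine across membranes and is best known from neurons, was at 17.3 and 16.1 FPKM in trunk notochord and at 0 in both NotoP libraries. MP had 0 and 0.620 FPKM, NMPdiff 0.525, NotoPdiff 0.859 and MPdiff 0.0944. The high trunk values of these 3 genes restate how they were chosen.

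*Serpina1b* belongs to the group of mouse genes for alpha-1-antitrypsin, a protease inhibitor made by liver and visceral endoderm. It was the least abundant of the 8 genes at E8.5, with 9.26 FPKM, and had 20.0 at E9.5 in trunk notochord, which is 6 and 12 fragments. NotoP had 0 and 0.452 FPKM, MP 0 at both stages, NMPdiff and MPdiff 0, and NotoPdiff 0.0342. Reads of the near-identical *Serpina1* copies may have been assigned to any of them, so the level of any single copy is uncertain. *Serpina1e* was at 19.0 FPKM in trunk notochord at E9.5 and at 0 in the other 8 libraries, while *Serpina1a* (3.83) and *Serpina1d* (3.05) were detected there at E8.5 and not at E9.5, with 3 and 2 fragments. The endoderm markers above moved with *Serpina1b* in part. *Afp* was at 2.11 FPKM at E8.5 and 95.7 at E9.5 in trunk notochord, but *Ttr* was at 36.0 and 23.4, and the E8.5 MP library with *Afp* at 62.2 had no *Serpina1b* fragment (upper limit 6.72 FPKM). The part of such cells in the *Serpina1b* signal was not tested.

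*Mt1* and *Mt2* encode metallothioneins, small cysteine-rich proteins that bind zinc and copper and are induced by metals through the transcription factor Mtf1. *Mt1* had 110 FPKM in E8.5 trunk cells and 21.9 in E9.5 trunk cells, 34.8 and 8.32 in NotoP, 9.58 and 0.844 in MP, and 101 in NMPdiff, 89.3 in NotoPdiff and 10.6 in MPdiff. *Mt2* was at 71.2 and 34.2 in trunk notochord, 6.78 and 0 in NotoP, 0 and 0.822 in MP, and 57.1, 59.0 and 2.19 in NMPdiff, NotoPdiff and MPdiff. Both paralogues were thus abundant in NMPdiff and NotoPdiff. Of the 9 libraries, trunk notochord ranks 1st for both at E8.5, and 5th for *Mt1* and 4th for *Mt2* at E9.5. Both transcripts are short, so that even these levels rest on few molecules in the embryo. *Mt1* has 27 and 5 fragments in trunk notochord, 20 and 7 in NotoP and 2 and 1 in MP, and *Mt2* has 18 and 8, 4 and 0, and 0 and 1.

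**Figure D1:**
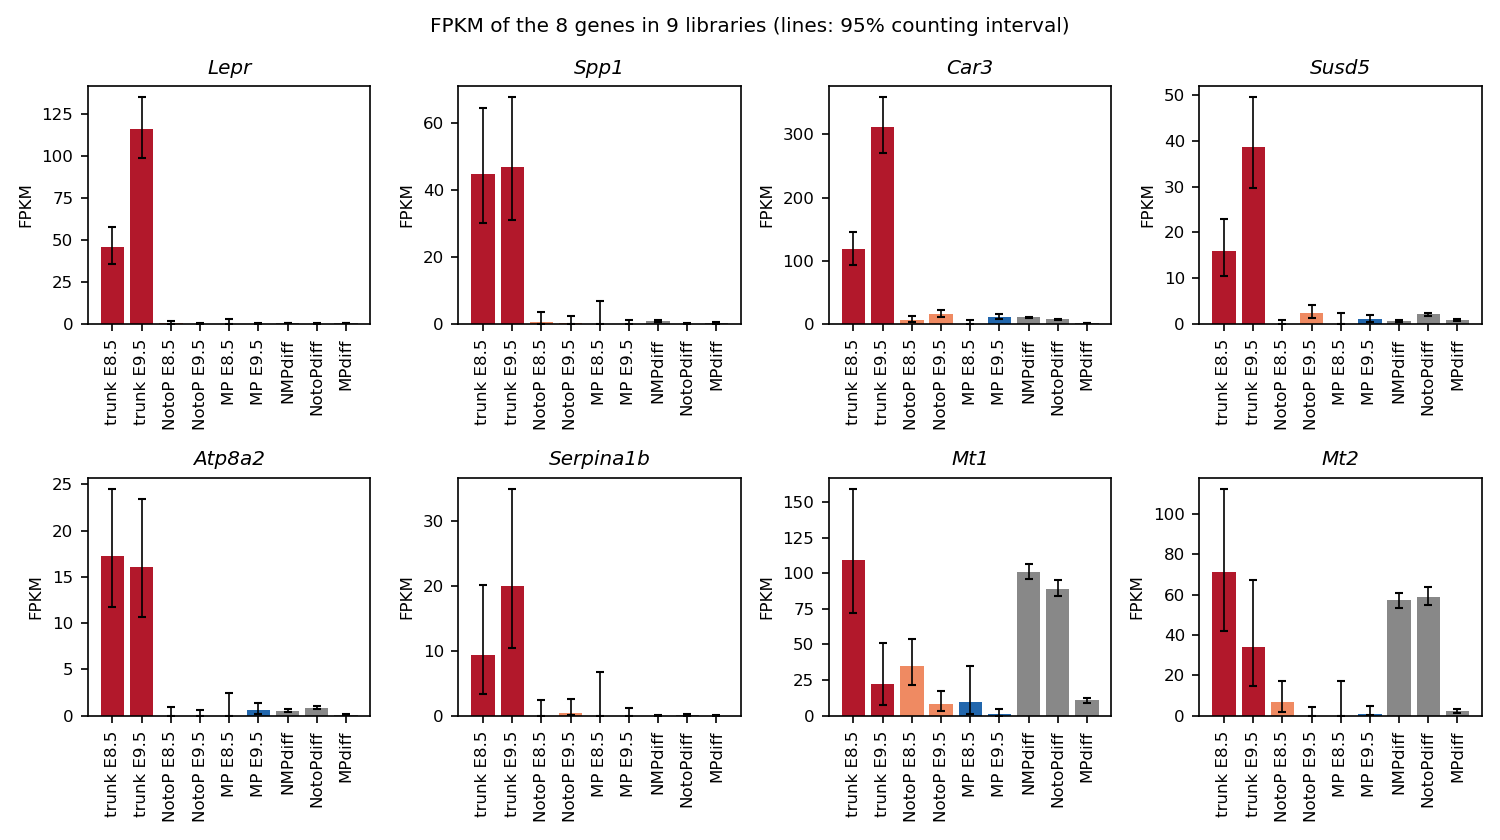
FPKM (vertical axis) of the 8 genes in the 9 RNA-seq libraries (horizontal axis, 1 bar per library), with 95% counting intervals as lines and trunk notochord in red, NotoP in orange, MP in blue and cultured cells in grey. For 6 genes both red bars stand above the other 7 libraries, while *Mt1* and *Mt2* are as high in NMPdiff and NotoPdiff.

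Set against NotoP, the trunk values that chose the genes give large ratios. *Lepr* was 135-fold higher at E8.5 (counting interval 26.9 to 3007) and at least 204-fold at E9.5, and *Spp1* was 67.7-fold (11.2 to 2765) and 103-fold higher (17.1 to 4232). The wide intervals follow from the single fragments in NotoP. *Car3* was better counted on both sides and was 17.4-fold (9.24 to 36.1) and 20.1-fold (14.1 to 29.3) higher. *Susd5* was at least 21.8-fold and 15.5-fold (8.73 to 29.3) higher, *Atp8a2* at least 24.3-fold and at least 33.2-fold, and *Serpina1b* at least 4.66-fold and 44.3-fold (6.55 to 1893). *Mt2* was 10.5-fold (3.46 to 42.6) and at least 9.84-fold higher. *Mt1* had the smallest ratios, 3.15-fold at E8.5 (1.70 to 5.92) and 2.64-fold at E9.5, where the interval of 0.660 to 9.65 includes no difference. On the log2(FPKM+1) scale 7 of the 8 genes, all but *Mt1*, are called (at least 3-fold higher at both stages), against 0.88% of all genes. Over MP all 8 are called, against 2.27% of all genes. With a pseudocount of 5 the counts are 6 over NotoP and 7 over MP, as *Serpina1b* has a log2 ratio of 1.51 at E8.5 in both and is lost. Over MP at E8.5 its ratio against the floor is 1.70. The counting intervals overlap there, with 3.40 to 20.2 FPKM in trunk notochord and 0 to 6.72 in MP. These counts restate the choice of the genes and nothing further is read from them. The intervals cover counting error only, not differences between embryos or sorts. Each "at least" sets the measured value against a floor of 3 fragments on the side at 0. The counting error of the measured side is left out, so these ratios are no strict lower bounds.

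Genes were ranked on the log2(FPKM+1) scale by the smaller of the 2 stage ratios of trunk notochord over the higher of NotoP and MP. Among all genes it is largest for *Lepr*, with a log2 ratio of 5.13, followed by *Spp1* (4.79). *Car3* (3.93), *Susd5* (3.50), *Atp8a2* (3.40) and *Serpina1b* (3.36) take places 5, 7, 8 and 9. The other places among the first 10 belong to *Snord8*, the cartilage collagen gene *Col11a2* (4.42), the axon guidance gene *Slit1* (3.85) and the non-coding RNA *2610203C20Rik* (3.29). *Mt2* (3.21) is the first gene outside them and *Mt1* is in place 235. *Snord8* is a small nucleolar RNA so short that its 2 trunk values are steps of about 1 fragment each, and its place is not read. The places depend on the pseudocount, as with 5 the value of *Car3* (3.38) is above that of *Lepr* (3.25).

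Within trunk notochord the genes went in different directions from E8.5 to E9.5. *Car3* was 2.65-fold higher in FPKM at E9.5 (2.04 to 3.47), *Lepr* 2.52-fold (1.90 to 3.38) and *Susd5* 2.43-fold (1.53 to 3.94), each with an interval that leaves out no change. *Serpina1b* had a ratio of 2.16, but the interval of 0.751 to 7.02 includes 1. *Spp1* and *Atp8a2* were level between the stages, with ratios of 1.04 (0.598 to 1.82) and 0.932 (0.535 to 1.61). The metallothioneins pointed the other way. *Mt1* was 5.00-fold lower at E9.5 (1.90 to 16.6), and *Mt2* 2.08-fold lower with an interval of 0.861 to 5.53 that includes no change. By the 3-fold rule none of the 8 genes is called higher at E9.5, against 4.28% of all genes, and 1 (*Mt1*) is called lower, against 5.79%. At both stages the trunk libraries are shallow, with an implied 454658 counted fragments at E8.5 and 420697 at E9.5. The study lists more mapped reads for both, after removal of copies.

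**Figure D2:**
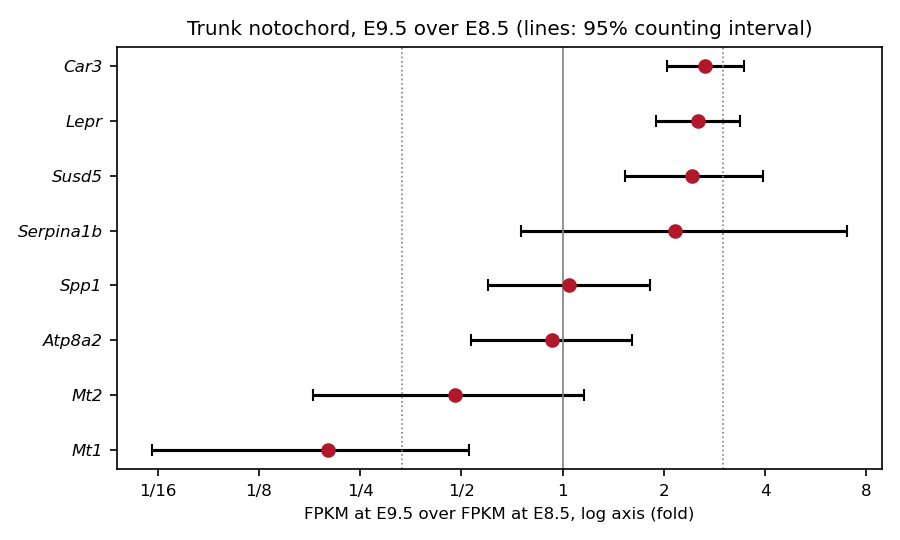
Ratio of FPKM in trunk notochord at E9.5 over E8.5 (horizontal log axis, fold) for each gene (vertical axis), with points for the ratios and lines for 95% counting intervals. The intervals of *Car3*, *Lepr* and *Susd5* lie above 1 and that of *Mt1* below 1, while those of the other 4 genes cross it, and the dotted lines mark 3-fold.

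NotoP, whose stage change was not used in the choice, could be read for 4 genes. Only *Car3*, *Susd5*, *Mt1* and *Mt2* have more than 3 fragments in a NotoP library. *Car3* was 2.30-fold higher at E9.5 (1.15 to 4.98) and *Susd5* at least 3.41-fold. *Mt1* was 4.18-fold lower (1.70 to 11.7). *Mt2* was at 6.78 FPKM at E8.5 (interval 1.85 to 17.4) and at 0 at E9.5 (up to 4.27), and these intervals overlap. *Susd5* is the only gene called higher (1 of 8, against 2.3% of all genes), and *Mt1* and *Mt2* are called lower (2 of 8, against 1.99%). All 3 calls are lost with a pseudocount of 5, where the log2 ratio is 0.58 for *Susd5*, -1.24 for *Mt2* and -1.58 for *Mt1*, the last just short of the threshold. That of *Mt2* rests on 4 fragments against 0. Both metallothioneins thus had lower values at E9.5 in trunk notochord and in NotoP. For *Mt2* the trunk interval includes no change and the NotoP intervals overlap. The heat shock genes *Hspa1a* and *Hspa1b*, at only 2.36 and 4.70 FPKM in trunk notochord at E8.5, were also lower at E9.5 in both tissues. *Hsph1* (39.2 to 43.1 in trunk notochord, 36.1 to 46.8 in NotoP) and *Dnajb1* (7.77 to 14.7 and 12.5 to 15.9) were not lower. *Egr1*, *Fos* and *Jun* were higher at E9.5 in trunk notochord. In the endoderm list, more markers were lower than higher at E9.5 in trunk notochord. *Epcam* went from 25.6 to 2.31 FPKM in trunk notochord, 18.3 to 8.12 in NotoP and 22.7 to 0.444 in MP, with 81.0, 31.7 and 5.06 in NMPdiff, NotoPdiff and MPdiff, and *Rbp4* from 47.3 to 7.67 in trunk notochord and from 2.03 to 2.77 in NotoP. *Ttr* (36.0 to 23.4), *Apob* (7.12 to 1.03), *Trf* (6.60 to 3.06), *Cldn6* (29.2 to 26.8) and *Hnf4a* (2.02 to 0.545) were also lower in trunk notochord. Only *Afp* (2.11 to 95.7), *Apoa1* (6.68 to 12.0) and *Alb* (0 to 3.49) were higher at E9.5 in trunk notochord. Their part in the metallothionein values was not tested. Stage and collection of the embryos cannot be told apart here. In MP, *Mt1* had 2 fragments at E8.5 and 1 at E9.5, too few for a comparison.

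In culture the metallothioneins were the genes past the 3-fold rule. *Mt1* was 8.43-fold higher in NotoPdiff than in MPdiff (7.03 to 10.2) and *Mt2* 27-fold (18.5 to 40.9), and these 2 of the 8 genes are called higher, against 1.55% of all genes. None is called lower, against 0.442%. NMPdiff cells, collected on day 3 without doxycycline, had about as much of both. The NotoPdiff level was 1.13-fold lower for *Mt1* (1.05 to 1.23) and unchanged for *Mt2*, with a ratio of 1.03 (0.934 to 1.14). The low library is thus MPdiff, and none of the 8 genes is called higher or lower in NotoPdiff than in NMPdiff, against 1.31% and 0.796% of all genes. In the comparisons with NotoPdiff, doxycycline and sorting gate (and, for NMPdiff, the day of collection) cannot be told apart.

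Of the other 6 genes, *Car3* was at 7.39 FPKM in NotoPdiff and at 6.78 and 15.6 in NotoP. The rest were at 2.49 FPKM or less in NotoPdiff and in both NotoP libraries. NotoPdiff cells, sorted on the *Noto* reporter, expressed *Noto* (22.5 FPKM), *Shh* (30.2) and *Foxa2* (95.5, transgene included). *Lepr*, *Spp1*, *Atp8a2* and *Serpina1b* were under 1 FPKM in all 3 cultured libraries. *Atp8a2* was nonetheless 9.10-fold higher in NotoPdiff than in MPdiff in FPKM (4.47 to 21.1), from 70 and 9 fragments. *Susd5* was 3.30-fold higher in NotoPdiff than in NMPdiff (2.48 to 4.42) and 2.54-fold higher than in MPdiff (1.92 to 3.38). *Car3* was 4.00-fold higher than in MPdiff (3.03 to 5.34) but 1.42-fold lower than in NMPdiff (1.21 to 1.68). The library with the most RNA thus differed from gene to gene. *Lepr* and *Spp1* had their highest cultured value in NMPdiff, where *Lepr* was 3.12-fold (1.75 to 5.93) and *Spp1* 9.24-fold (2.90 to 47.9) above NotoPdiff. The 3-fold rule, applied after adding 1 FPKM, calls none of these. Embryonic and cultured libraries were sequenced on different instruments, and their levels stand side by side here without a ratio.

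Correlations over the 9 libraries describe how alike the genes are, and those among the genes picked on their trunk values follow from that choice. Pearson correlations of log2(FPKM+1) between *Lepr*, *Spp1*, *Atp8a2* and *Serpina1b* run from 0.955 (*Atp8a2* with *Serpina1b*) to 0.988 (*Lepr* with *Spp1*). *Mt1* correlates with *Mt2* at 0.852 and with *Lepr* at 0.344, and *Mt2* correlates with *Lepr* at 0.572, with *Spp1* at 0.579 and with *Atp8a2* at 0.635. Of 8751 genes with at least 10 FPKM in 1 library, those most like *Lepr* were *Habp2* (0.994), *Acan* (0.992) and *Col11a2* (0.990). *Acan*, which encodes aggrecan, was also first for *Spp1* (0.990) and *Atp8a2* (0.982), and *Habp2* first for *Serpina1b* (0.995). Next came *Lepr* and *Habp2* (0.979) for *Spp1*, *Col11a2* and the reelin gene *Reln* (0.978) for *Atp8a2*, and *Hpgd* and the collagen gene *Col6a3* (0.990) for *Serpina1b*. Aggrecan and these collagens are components of extracellular matrix. *Car3* was most like *Stk11ip* (0.986), *Map2* (0.960) and *Psme2* (0.959), and *Susd5* most like *Gcnt1* (0.989), *Gxylt1* (0.986) and *Agtr1a* (0.979). *Mt1* was most like *Emb* (0.966), *Bex4* (0.964) and the E-cadherin gene *Cdh1* (0.953), and *Mt2* most like *Map7* (0.979), *Klf7* (0.935) and *Cmtm4* (0.929). *Cdh1* was at 37.4 and 11.3 FPKM in trunk notochord, 29.5 and 3.36 in NotoP, 5.88 and 0.933 in MP, and 114, 88.5 and 11.1 in NMPdiff, NotoPdiff and MPdiff, close to the order of *Mt1*. These values rest on 9 points and are descriptions only. For the genes other than *Mt1* and *Mt2*, the 2 trunk libraries carry most of the spread. For *Mt1* and *Mt2* the cultured libraries and the low NotoP and MP libraries carry more of it. Among these is MP at E9.5, where the *Mt1* value of 0.844 FPKM is 1 fragment. With the 6 embryonic libraries alone, 7 of these 24 most similar genes are kept, and none of those of *Serpina1b* and *Mt2*.

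Relatives of the genes varied in their pattern. The leptin gene *Lep* was at 0 in all 9 libraries, and *Leprot*, which shares its first exons with *Lepr*, was at 24.1 and 22.1 FPKM in trunk notochord and between 5.68 and 12.6 elsewhere, so that it too was highest in trunk notochord. *Jak2* was lower in trunk notochord (5.31 and 7.17) than in NotoP (22.9 and 18.1). *Stat3* (1.49 and 6.96 against 4.84 and 3.92), *Sh2b1* (5.22 and 23.0 against 7.88 and 9.82) and *Socs3* (0.807 and 3.49 against 0 and 0.473) had higher values in trunk notochord at E9.5. Leptin signalling genes thus went both ways. Among proteins that bind osteopontin, *Itgav* was at 31.2 and 38.1 FPKM and *Itgb1* at 91.3 and 148 in trunk notochord, near the NotoP values of 33.3 and 28.8 and of 106 and 98.6. *Cd44* was lower in trunk notochord (6.54 and 8.09) than in NotoP (18.3 and 26.6), and the genomic neighbours *Dmp1* and *Mepe* were at 0 throughout. Among other osteopontin receptor genes, *Itgb5* was lower in trunk notochord (10.1 and 2.92) than in NotoP (23.0 and 17.9), whereas *Itga9* (0 and 11.5 against 0.808 and 1.47), *Itga8* (1.90 and 6.17 against 1.14 and 0.780) and *Itga4* (0 and 2.90 against 0.767 and 0.197) were higher there at E9.5. Some carbonic anhydrases were high in trunk notochord, but not only there. *Car4*, a membrane-anchored form, was at 230 FPKM in the E8.5 and 36.6 in the E9.5 trunk library, 15.2 and 5.45 in NotoP, 71.9 and 0.704 in MP, and 15.3, 57.6 and 2.51 in NMPdiff, NotoPdiff and MPdiff. *Car2* was at 40.5 and 21.2 in trunk notochord, 5.27 and 2.16 in NotoP and 0 and 2.04 in MP, and was as high in NMPdiff (43.0). *Car4* and *Car2* had lower values at E9.5 than at E8.5 in trunk notochord, the reverse of *Car3*, whereas *Car11* was higher at E9.5 (6.11 and 16.5, against 4.58 and 0.894 in NotoP), and *Car14* had no excess in trunk notochord (63.6 and 19.0 against 72.0 and 50.3 in NotoP). Among flippases, *Atp8a1* was lower in trunk notochord (3.24 and 2.92) than in NotoP (5.77 and 20.1), and the shared subunit gene *Tmem30a* was at 42.1 and 68.8 against 61.3 and 47.5. *Susd4* was at 2.16 and 16.4 against 13.4 and 24.4.

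The brain and skin metallothionein genes *Mt3* and *Mt4* were at 0 in every embryonic library, where the short *Mt3* transcript could have been missed at up to 15.1 FPKM in the younger trunk cells and 16.3 in the older ones. In culture *Mt3* had 2.53 FPKM in NotoPdiff (28 fragments), 0.133 in NMPdiff and 0 in MPdiff, and *Mt4* was at 0. Other genes of zinc handling and metal response varied. The zinc importer *Slc39a10* was at 94.4 and 81.9 FPKM in trunk notochord, 62.7 and 44.7 in NotoP and 62.2 and 34.4 in MP. *Sepw1* was at 103 and 60.7 in trunk notochord and 97.6 and 66.7 in NotoP, so that both genes were lower at E9.5. *Txnrd1* was higher at E9.5, with 42.6 and 58.2 FPKM in trunk notochord and 20.5 and 50.2 in NotoP, and *Gclm* had 5.31 and 2.29 in trunk notochord and 0.910 and 3.42 in NotoP. Of the 13 genes of this list in the table, none was at least 3-fold higher (4.28% of all genes) and 2 were at least 3-fold lower (5.79%) at E9.5 than at E8.5 in trunk notochord. These 2 are *Mt1* and *Hmox1*, the latter with 6.98 and 0 FPKM in trunk notochord and 12.6 and 4.90 in NotoP.

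Peaks of the cultured NotoPdiff-enriched cells were then examined around the 8 genes. A T peak has its summit within 50 kb of 7 of the 8 genes, all but *Lepr*, against 34.2% of the 22565 genes placed on the genome. As *Mt1* and *Mt2* lie side by side and share their peak, these are 6 peaks. A Foxa2 peak lies within 50 kb of 4 genes, *Spp1*, *Car3*, *Susd5* and *Atp8a2*, against 61.2% of genes. None of the 8 has a T peak that overlaps a Foxa2 peak within 50 kb, against 7.21%. With 8 genes of very different length these shares are only a frame for the count. Of genes within 2-fold of the length of *Atp8a2*, for instance, 68.9% have a T peak and 95.1% a Foxa2 peak, and for *Mt2* the shares are 19.6% and 35.6%. *Lepr*, the gene with the largest trunk ratio, had neither peak within 100 kb, while 45.0% of genes of its length have a T peak and 81.5% a Foxa2 peak within 50 kb.

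*Susd5* had the strongest T peak of the 8 genes. It lies in intron 4 (chr9:114085647-114086196), with a fold enrichment of 17.7, place 351 of 6875. A Foxa2 peak of 16.6 lies in the same intron, its summit 2.68 kb from that of the T peak, and further Foxa2 peaks lie in intron 3 (8.74) and 2.78 kb upstream (4.31). The other T peaks were near or below the median of the list (7.45). That of *Spp1* (7.80) is intergenic, 28.2 kb upstream, that of *Car3* (6.70) lies in intron 2, and that of *Atp8a2* (6.50) in intron 32. The metallothionein peak (chr8:94165757-94166061, 6.63) is intergenic, 6.70 kb upstream of *Mt2* and 13.0 kb upstream of *Mt1*. That of *Serpina1b* (5.67) is 22.4 kb upstream, but its nearest coding gene is *Serpina1d*, at 3.04 kb. The member was the coding gene nearest to a T summit for *Spp1*, *Car3*, *Susd5*, *Atp8a2* and *Mt2*. Foxa2 peaks were most numerous at *Atp8a2*, with 5 in its introns (highest 10.6, in intron 32), and at *Spp1*, with 4. The latter lie 48.5 kb (16.6) and 3.49 kb (10.9) upstream, 9.46 kb downstream (9.73) and 41.6 kb downstream within *Pkd2* (17.4). *Spp1* is the nearest coding gene only for the one at 3.49 kb. It is *Mepe* for the one at 48.5 kb and *Pkd2* for both downstream. *Car3* had 1 weak Foxa2 peak (4.20), 9.82 kb upstream in *Gm41999*. None of this shows that a peak acts on the gene it lies near, and the trunk cells themselves were not examined by ChIP-seq.

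**Figure D3:**
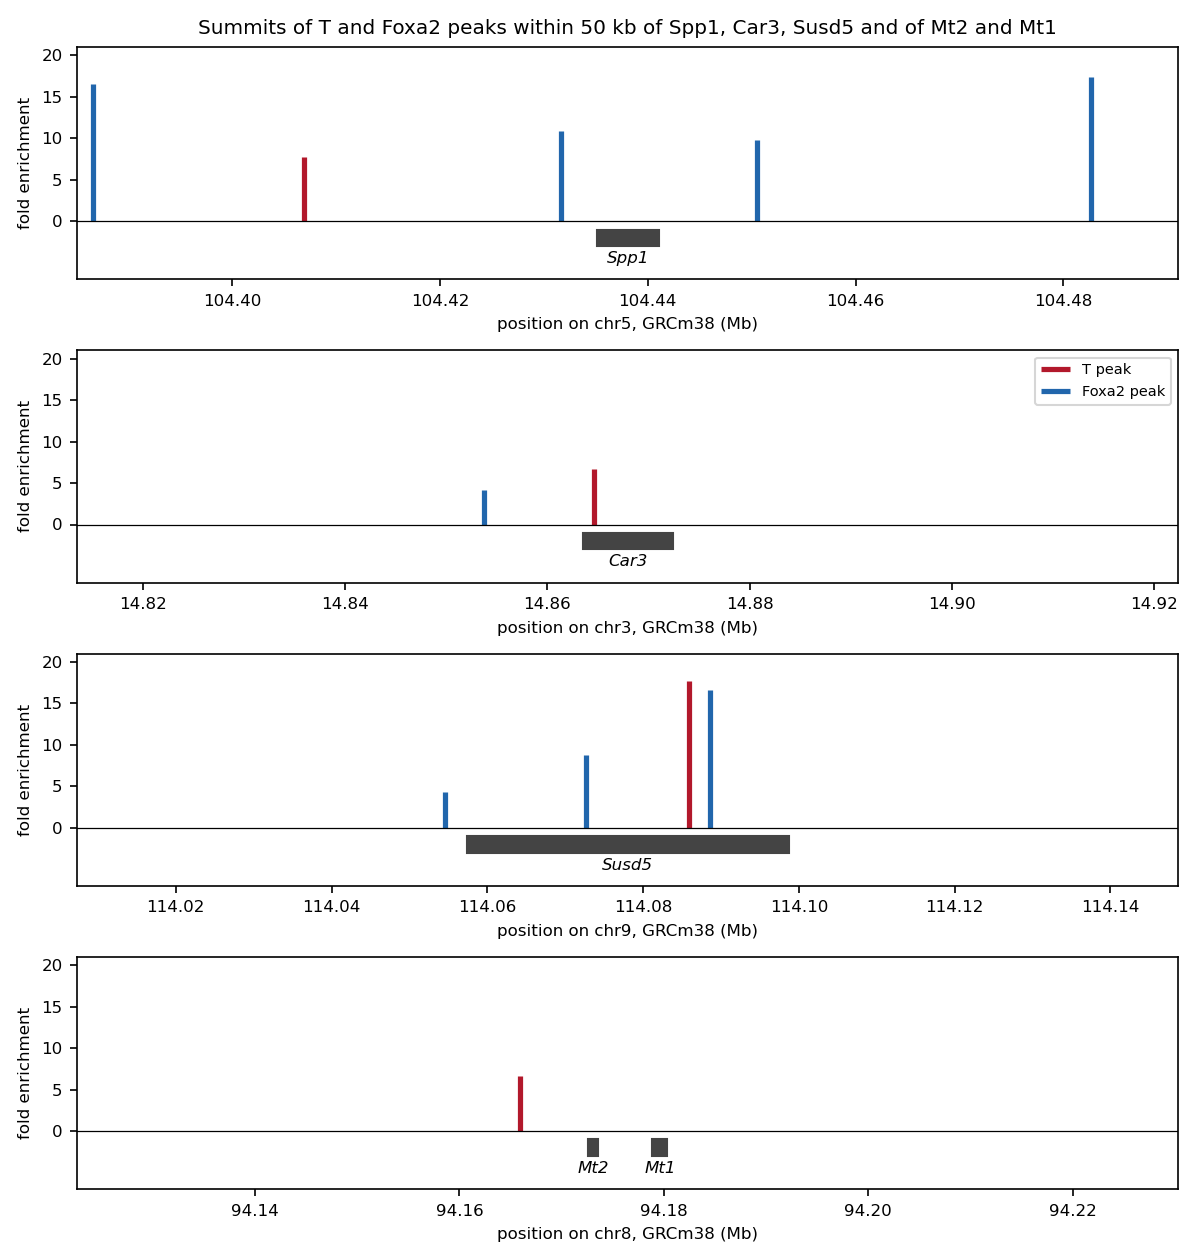
Summits of T peaks (red) and Foxa2 peaks (blue) in 4 regions of 50 kb on each side of *Spp1*, *Car3*, *Susd5* and of *Mt2* with *Mt1*, with the position in Mb (GRCm38) on the horizontal axis, the fold enrichment on the vertical axis and gene bodies as dark boxes. The 2 tallest lines at *Susd5* are the T peak (17.7) and the Foxa2 peak (16.6) of intron 4, and the metallothionein genes have a single T peak and no Foxa2 peak.

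The sequence at these T summits was read to show what each peak covers. Windows of 101 bases centred on the summit were searched on both strands for the T-box motif TCACACCT (AGGTGTGA on the other strand), which none of the 6 windows holds and which 2.97% of all T windows hold. With at most 1 base changed, a rule chosen after seeing these windows, 4 of the 6 hold a match, against 25.3% of all T windows and 10.6% of all Foxa2 windows. The 4 windows are printed from the plus strand of GRCm38 (RefSeq GRCm38.p6), with the match in capitals. They are *Susd5* chr9:114085904-114086004 (intron 4), *Car3* chr3:14864586-14864686 (intron 2), the metallothionein peak chr8:94165865-94165965 (intergenic) and the *Serpina1b* peak chr12:103760500-103760600 (intergenic).
Susd5 T window: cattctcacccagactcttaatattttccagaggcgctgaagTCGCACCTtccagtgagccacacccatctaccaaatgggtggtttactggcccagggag
Car3 T window: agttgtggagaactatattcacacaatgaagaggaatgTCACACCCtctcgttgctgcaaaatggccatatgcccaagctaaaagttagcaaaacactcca
Mt2 and Mt1 T window: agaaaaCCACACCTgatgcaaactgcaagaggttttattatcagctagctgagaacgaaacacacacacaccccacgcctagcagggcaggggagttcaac
Serpina1b T window: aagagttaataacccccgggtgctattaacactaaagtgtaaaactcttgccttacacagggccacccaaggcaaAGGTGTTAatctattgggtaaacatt
A match is a description of the letters and does not show a binding site.

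The Foxa2 summits near these genes often lie in simple repeats of CA or TG. Of the 13 Foxa2 peaks within 50 kb of the 8 genes, 5 have a 101-base summit window of which at least 30% is made up of runs of 3 or more CA or TG units, as do 21.1% of all Foxa2 windows and 0.160% of all T windows. Among the 5 are the strongest Foxa2 peaks of *Susd5*, *Spp1* and *Atp8a2*. This measure of repeats was chosen after seeing the windows. The strongest Foxa2 peak of *Susd5* is shown as an example, chr9:114088584-114088684 (intron 4), from the plus strand of GRCm38 (RefSeq GRCm38.p6) with the repeat in capitals.
Susd5 Foxa2 window, intron 4: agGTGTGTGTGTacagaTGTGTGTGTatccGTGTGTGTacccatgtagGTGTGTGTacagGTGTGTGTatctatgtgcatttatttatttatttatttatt
Whether the repeats affect the alignment of reads or the height of these peaks was not tested. The forkhead motif (TGTTTAC or TGTTTGC, both strands) is in 1 of the 6 T windows, that of *Serpina1b*, against 13.1% of all T windows. Of the 13 Foxa2 windows 1 holds the motif, against 17.9% of all Foxa2 windows. This window belongs to the peak 9.46 kb downstream of *Spp1* and nearer to *Pkd2*, chr5:104450467-104450567 (intergenic, plus strand), with the motif in capitals.
Spp1 Foxa2 window, downstream: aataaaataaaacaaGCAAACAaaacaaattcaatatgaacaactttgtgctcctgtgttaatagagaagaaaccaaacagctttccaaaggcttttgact

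Promoter sequences of 250 bases before to 50 after the transcript start were available for 6 of the 8 genes, in 8 windows. The metallothionein promoters are shown because both genes had lower values at E9.5 in trunk notochord and NotoP and higher values in NotoPdiff than in MPdiff. The core of the metal response element, TGCACNC or TGCGCNC on either strand, occurs 3 times in the *Mt1* window and 4 times in the *Mt2* window. Of 32851 promoter windows in the same table, 25.7% hold at least 1 match, 1.97% at least 3 and 0.517% at least 4. *Susd5* has 2 matches and *Lepr* 1, in 1 of its 2 windows, and the windows of *Spp1* and *Serpina1b* have none. None of the 8 windows holds the T-box motif. The forkhead motif is in that of *Serpina1b*, 58 bases before the start, against 8.48% of all promoter windows. The peak distance of *Mt1* was taken from another start of the gene, chr8:94178883. It lies inside the *Mt1* window, upstream of its 3 matches. The *Mt1* window is chr8:94178839-94179138 and the *Mt2* window chr8:94172368-94172667, both on the plus strand of GRCm38 (RefSeq GRCm38.p6), with matches in capitals.
Mt1 promoter: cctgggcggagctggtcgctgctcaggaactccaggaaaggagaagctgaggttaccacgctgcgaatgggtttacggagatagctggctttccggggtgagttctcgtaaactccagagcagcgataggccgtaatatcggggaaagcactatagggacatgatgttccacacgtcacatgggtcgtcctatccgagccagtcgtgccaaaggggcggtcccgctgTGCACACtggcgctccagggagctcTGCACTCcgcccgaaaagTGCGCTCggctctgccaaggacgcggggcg
Mt2 promoter: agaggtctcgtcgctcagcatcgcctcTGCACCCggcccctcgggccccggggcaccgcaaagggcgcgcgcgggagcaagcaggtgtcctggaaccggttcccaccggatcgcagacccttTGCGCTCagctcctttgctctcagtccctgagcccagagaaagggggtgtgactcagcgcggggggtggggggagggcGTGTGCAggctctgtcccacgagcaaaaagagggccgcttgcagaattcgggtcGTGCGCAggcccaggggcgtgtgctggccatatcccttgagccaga
Neither window overlaps a T or Foxa2 peak, as the T peak of this region ends upstream of both. Binding of Mtf1 was not measured.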

How the data were processed

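For RNA-seq the authors aligned reads to mm10 with TopHat2 2.1.1 and Bowtie 1.2.2, removed copies by molecular identifiers, and deposited FPKM values estimated by Cufflinks 2.2.1 with bias and multi-read correction. For ChIP-seq the authors aligned with Bowtie 1.3.1 and called peaks with MACS3 3.0.0b1 at a q cutoff of 0.1, and no control library is named. The deposited peak lists give a score, a fold enrichment at the summit, −log10 p, −log10 q and a summit offset. The 10 samples on open chromatin and histone marks were left out.

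With 1 library per condition no test across replicates was made, and a gene was called when log2(FPKM+1) differed by at least 3-fold. The FPKM values rise in steps, so fragment numbers were recovered from FPKM times RefSeq transcript length, a method chosen after seeing the data and checked on 14603 genes with 1 transcript. In each library between 90.1% and 90.8% of their values up to 20 fragments are whole within 0.05. The implied depth is 454658 and 420697 fragments for trunk notochord, 1060430 and 1552770 for NotoP, 385342 and 2186860 for MP, and 27904100, 20539900 and 23002800 for NMPdiff, NotoPdiff and MPdiff, which leaves genes under a few FPKM at single fragments in the embryo. For the embryonic libraries the study lists more mapped reads, after removal of copies, than these fragments, a gap that was not examined. Fragment numbers of *Lepr*, *Spp1*, *Car3* and *Atp8a2* are approximate. Intervals are exact Poisson and binomial intervals at 95%. Named genes are the 8 genes, relatives reaching 10 FPKM (up to 6 a list), the 3 most similar genes, the first 10 by trunk ratio and cell type markers, and further genes of these lists were added with their values known. Members and lists were chosen with earlier results of these data known. Scripts ran in Python 3.11.15 with scipy 1.17.1, pyfaidx 0.9.0.4, matplotlib 3.10.9, pandas 2.3.3 and numpy 2.4.6.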

Additional observations from a re-analysis of the deposited data

How the results depend on the processing

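No paired analysis was made. Each group has 1 library, and pairing by stage would use E8.5 and E9.5 as replicates of the comparison that chose the genes. The stage comparison could have been paired within tissues, which was not done. Across 66 alternatives of 14 results (13 counts and the most similar genes), 57 stayed within 1.5 times the main value and 9 moved. Of 192 alternative log2 ratios of single genes, 131 stayed within the counting interval of the plain ratio or close to the main value (by under 0.1) and 61 did not. Ratios with a side at 0, or with both sides at or under the floor of 3 fragments, have no such interval. They are among the 61 once they shift by 0.1 or more. An example is *Lepr* in trunk notochord over NotoP at E9.5, with 6.87 in the main setting, 10.18 with a pseudocount of 0.1 and 4.60 with 5. For alternatives of the pseudocount the sign is no check, since a pseudocount cannot turn it. Rescaling removes median log2 shifts of only -0.0687 to 0.0513, and only ratios past 3-fold could count as reversed. That 0 of the 192 alternatives were reversed is therefore no check for rescaled libraries either. Shares of all genes were taken with the 3-fold rule after adding 1 FPKM. None stands beside the counts under other rules, which show only how the rule moves a count. With a 2-fold rule 4 genes were higher and 2 lower in trunk notochord at E9.5, against 0 and 1. In NotoP, where 1 gene was called higher at E9.5, a pseudocount of 0.1 gave 2, a pseudocount of 5 gave 0 and the 2-fold rule 2, and the 2 called lower became 0 with a pseudocount of 5. A pseudocount of 0.1 raised the genes higher in NotoPdiff than in MPdiff from 2 to 4, and those lower than in NMPdiff from 0 to 1. Of the 24 most similar genes, 7 were kept with the 6 embryonic libraries. The pseudocount moves genes under a few FPKM by its construction. The counts of genes with T or Foxa2 peaks were 7 and 4 in the main setting, 5 and 4 within 20 kb, 7 and 5 within 100 kb, 7 and 3 with a q cutoff of 0.001, and 5 and 4 by nearest gene, a rule met by 20.5% and 37.3% of all coding genes. The shares of 34.2% and 61.2% of all genes hold for the main setting of 50 kb. They are no frame for the other windows and the cutoff, and nothing is read from those counts. Chosen after seeing the data were 3 alternatives. GENCODE gene positions left 7 and 4, and the removal of repeat windows, run for Foxa2 only, left 4. In the embryonic libraries depth limits what can be said of genes under a few FPKM.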

Other observations

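Repeats of CA or TG mark the Foxa2 list as a whole. Of its 22680 windows, 4781 have at least 30% of such repeat, whose enrichment has a median of 7.86, compared with 7.00 in the rest. They supply 1443 of the 5397 peaks with a fold enrichment of at least 10. In the T list, from the same kind of culture, 11 of 6871 windows do. The cause was not tested.

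Immediate early and heat shock genes were uneven between the trunk libraries. *Egr1* was at 3.58 FPKM at E8.5 and 19.3 at E9.5 against 0.614 and 0.419 in NotoP, *Jun* at 17.3 and 37.3 against 10.7 and 15.0, and *Fos* at 2.1 and 9.08 against 0.450 and 1.54. *Hsph1* was level, at 39.2 and 43.1. *Ier2* was at 28.9 and 10.9 against 26.6 and 44.9, and *Junb* at 0 in both against 4.10 and 10.2. Of the 12 genes of this list, 3 were at least 3-fold higher and 3 at least 3-fold lower at E9.5 than at E8.5 in trunk notochord, against 4.28% and 5.79% of all genes. The 3 higher are *Egr1*, *Fos* and *Fosb* (0 to 6.30), while *Jun* stays under 3-fold. The 3 lower are *Atf3* (5.57 to 0), *Hspa1a* (2.36 to 0) and *Hspa1b* (4.70 to 0), and the last 2 went from 2.70 to 0.230 and from 3.69 to 0.229 in NotoP.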
